A study of Mus musculus with 6 samples.

Results

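The clock output transcription factors Dbp, Tef, Hlf, Nfil3, Bhlhe40, Bhlhe41 and Rora were followed in cultured inguinal fat cells, differentiated before use and profiled on Affymetrix mouse 430 2.0 arrays. Members were chosen by gene symbol: every probe set whose platform annotation names one of these 7 genes and no other was taken, which gave 20 of 45037 probe sets, for 7 of 18193 genes. One group held 3 samples exposed over 4 days to rosiglitazone at 1 uM, labelled as beiging, and the other 3 control samples, labelled as non-activated, with 1 array each. Both groups were differentiated inguinal fat cells. Rosiglitazone is a thiazolidinedione, an agonist of PPARγ, the nuclear receptor that drives fat cell formation. The labels used here give neither the strain, sex and age of the mice nor the differentiation medium, and no time of day or clock synchronisation. No series of harvest times is given in them either, so a shift in the phase of a rhythm and a change in its mean level cannot be told apart.

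The circadian clock is a transcriptional loop in which CLOCK and BMAL1 (gene Arntl) activate their own repressors through E-box elements. The loop drives a layer of output factors. DBP, TEF and HLF are the PAR bZIP proteins, which activate genes through D-box elements. NFIL3, also called E4BP4, binds the same elements and represses. BHLHE40 and BHLHE41, also called DEC1 and DEC2, bind E-boxes and repress genes that CLOCK and BMAL1 activate. RORα, the product of Rora, activates Arntl through ROR elements, against the REV-ERB repressors encoded by Nr1d1 and Nr1d2. Fat is among the tissues in which these genes are known to cycle.

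Values are the authors' deposited probe set intensities on a linear scale. The lowest 40% of probe sets by mean intensity were not tested, and intensities under 16 were set to 16 before log2 was taken. Each log2 change is rosiglitazone minus control from limma, with its standard error (SE), and adjusted p is the Benjamini-Hochberg value over 27022 probe sets, with a threshold of 0.05. Array medians ranged from 44.46 to 46.66. On the log2 scale the correlation was 0.993 to 0.995 within groups and 0.971 to 0.973 between them. The labels do not say whether replicates were separate cultures, so p-values describe the spread among these samples, and that spread may be technical. In RNA from whole cultures, fewer cells of a type and less RNA per cell cannot be told apart.

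The factors were mostly lower in rosiglitazone-treated cells. Bhlhe40 fell 2.31-fold, Nfil3 fell 1.79-fold, and 7 of 9 Rora probe sets fell by 33.2% to 50.7%. Both Hlf probe sets and 2 of 3 Tef probe sets fell, while Dbp changed least. Of the 20 probe sets, 18 passed the filter on low values. Of these, 14 were lower, 1 was higher and 3 did not pass the test. Over all probe sets tested, 51.9% passed the test, 30.7% lower and 21.2% higher. Of the 18 tested, the treated arrays lay wholly below the control arrays in 15 and wholly above in 1, against 34.1% and 24.2% of all probe sets tested. The median log2 change of the 18 was −0.69, against −0.04 for all probe sets tested. Rora alone gave 9 of the 18 tested sets and 7 of the 14 lower ones, so repeated reads of 1 gene weigh heavily in these numbers. Read from the brightest probe set of each gene, 6 of 6 tested genes were lower, against 35.3% of 12952 genes.

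The balance of rises and falls over the whole array depended on scaling, since 59.2% of called probe sets were lower as deposited, 47.6% after quantile normalization and 39.5% after median centring. Centring shifted the array-wide median log2 change upward by 0.12. Among the factors, quantile normalization left 14 probe sets lower and 1 higher, and median centring 13 lower and 1 higher, the lost call being that of Dbp.

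**Figure D1:**
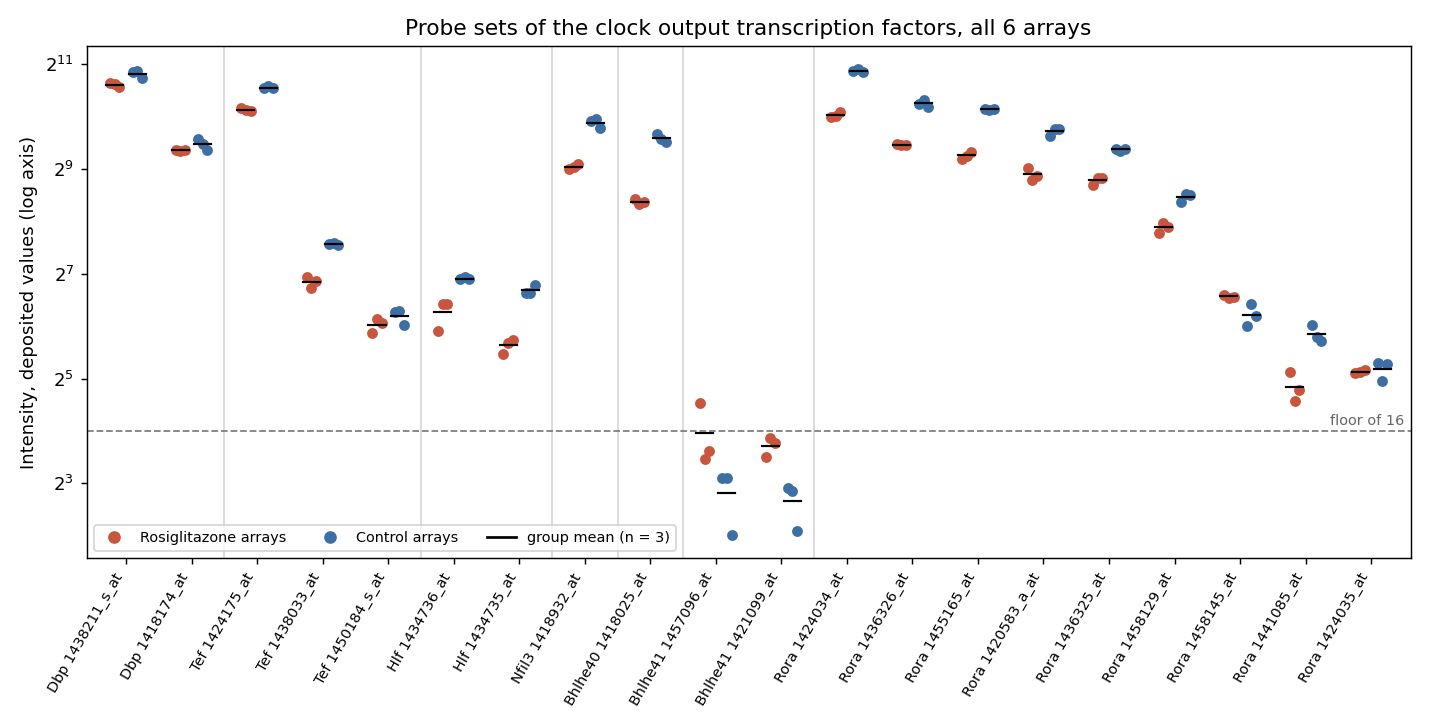
Deposited intensity (log axis) of all 20 probe sets on each of the 6 arrays, rosiglitazone to the left of control, with black bars for group means. Rosiglitazone arrays lay below control arrays in 15 probe sets and above them in 3, of which 2 are the Bhlhe41 sets near or under the dashed floor of 16.

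Dbp, a PAR bZIP activator whose transcript is among the strongest cyclers of the mammalian clock, changed little. Its probe set 1438211_s_at read intensities of 1586.65, 1564.25 and 1510.17 with rosiglitazone, against 1838.54, 1863.18 and 1704.18 in control cells. The groups did not overlap, and the log2 change was −0.21 (SE 0.04, adjusted p = 0.00033), but after median centring it was −0.09 and did not pass the test (limma adjusted p = 0.0689). The other probe set, 1418174_at, read 657.93, 647.87 and 654.45 with rosiglitazone, against 762.89, 715.61 and 658.3 in control cells. Here the highest treated array lay just under the lowest control array, and the change of −0.12 did not pass the test (SE 0.05, adjusted p = 0.0672). It was 0.00 after median centring. It passed with array weights (−0.14, limma adjusted p = 0.0174) and without control replicate 3 (−0.18, limma adjusted p = 0.00607).

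Tef, the second PAR bZIP activator, fell on 2 of its 3 probe sets. Set 1424175_at read 1148.97, 1110.76 and 1093.85 with rosiglitazone, against 1491.32, 1522.53 and 1483.02 in control cells, a log2 change of −0.42 (SE 0.04, adjusted p = 9.5e-08). Set 1438033_at read 123.28, 105.53 and 116.94 with rosiglitazone and 190.76, 192.93 and 187.06 in control cells, a change of −0.73 (SE 0.08, adjusted p = 2.5e-06). In both sets every treated array lay below every control array, and the change was larger in the second, whose 95% interval (−0.91 to −0.55) did not reach that of the first (−0.50 to −0.34). The third set, 1450184_s_at, read 58.33, 70.68 and 66.55 with rosiglitazone and 77.09, 77.69 and 64.58 in control cells. These groups overlapped and the change of −0.17 did not pass the test (95% interval −0.45 to 0.12). An s in such an identifier, also present in Dbp set 1438211_s_at, marks a probe set that may match transcripts of different genes.

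Hlf, the third PAR bZIP activator, fell on both probe sets, which come from 1 expressed sequence tag and so are not independent. Set 1434735_at read 44.1, 51.31 and 53.31 with rosiglitazone, against 99.17, 99.08 and 109.6 in control cells. The treated arrays were all far below the controls, with a log2 change of −1.05 (SE 0.12, adjusted p = 3.0e-06), or 2.07-fold. With a floor of 64, which lay above its treated values, the change was −0.68 and still passed the test. Set 1434736_at read 60.39, 85.73 and 86.06 with rosiglitazone and 118.73, 123 and 118.64 in control cells. The first treated array was the lowest, and the change was −0.65 (SE 0.13, adjusted p = 0.00057). Without that array the log2 change was −0.48 and still passed the test.

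Promoter sequence from RefSeq (GRCm38.p6, from 250 bases before to 50 after a start site) was matched for 6 of the 7 genes, with 7 start sites, but not for Bhlhe40. It is shown because most of the factors were lower together. It was searched on both strands for the E-box CACGTG, the D-box TTATGTAA or TTACGTAA, the ROR element core AGGTCA and the cyclic AMP element TGACGTCA. Of 32851 such promoters, 7.15% held the E-box, 1.06% the D-box, 16.3% the ROR core and 1.79% the cyclic AMP element. Both Tef start sites held an E-box, beginning 127 and 138 bases before the start, as did Bhlhe41, 153 bases before. Hlf held a cyclic AMP element beginning 9 bases before its start, and Nfil3 a ROR core on the opposite strand beginning 12 bases before. None of the 4 motifs was found in the Dbp and Rora windows, and no D-box in any of the 7. Each window below runs 5′ to 3′ on the gene's strand and none reaches past the start site, with the motif in capitals. For Nfil3 the capitals are the reverse complement of AGGTCA.
Tef first start site, chr15:81802506-81802591, + strand: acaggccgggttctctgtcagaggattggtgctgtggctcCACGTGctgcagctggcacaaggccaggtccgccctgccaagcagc
Tef second start site, chr15:81811236-81811321, + strand: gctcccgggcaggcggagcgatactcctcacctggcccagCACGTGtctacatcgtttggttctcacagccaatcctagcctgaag
Bhlhe41, chr6:145865528-145865613, - strand: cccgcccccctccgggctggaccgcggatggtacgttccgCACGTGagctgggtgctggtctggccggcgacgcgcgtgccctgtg
Hlf, chr11:90390918-90390966, - strand: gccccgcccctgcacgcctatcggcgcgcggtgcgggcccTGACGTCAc
Nfil3, chr13:52981040-52981091, - strand: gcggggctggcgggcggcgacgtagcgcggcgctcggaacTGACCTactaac
These matches describe the letters in the windows and were not tested for binding.

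Nfil3 represses through the elements that the PAR bZIP proteins activate. It fell in the same arrays as Hlf and most Tef probe sets, while Dbp changed little. The only Nfil3 probe set, 1418932_at, read 509.54, 524.92 and 546.76 with rosiglitazone, against 969.36, 985.61 and 875.38 in control cells. The groups were far apart, at 527.1 ± 18.7 with rosiglitazone and 943.5 ± 59.5 in control cells (mean ± SD, n = 3 each). The log2 change was −0.84 (SE 0.05, adjusted p = 1.9e-09), and it lay between −0.89 and −0.72 under the 20 alternatives tried. Its limma adjusted p was less stable and reached 0.000793 with no filter on dim sets.

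Bhlhe40, an E-box repressor that also responds to hypoxia and to immune and hormonal signals, had the largest fall of the brightest probe sets of the 6 tested genes. Set 1418025_at read 342.34, 321.27 and 330.14 with rosiglitazone, against 808.88, 754.74 and 732.09 in control cells, so every treated array was below the lowest control array by a wide margin. The log2 change was −1.21 (SE 0.05, adjusted p = 3.3e-11). Of all probe sets tested, 2.20% had a log2 change this low or lower, and it lay between −1.24 and −1.08 under the 20 alternatives. Its limma adjusted p was less stable and reached 0.000185 with no filter on dim sets.

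Bhlhe41, the close relative of Bhlhe40, was too dim to test. Set 1457096_at read 23.31, 11 and 12.22 with rosiglitazone, against 8.56, 8.64 and 4.06 in control cells. Set 1421099_at read 11.31, 14.54 and 13.59 with rosiglitazone, against 7.56, 7.23 and 4.28 in control cells. In both, the treated arrays stood above the controls, but 11 of the 12 values lay under the floor of 16, where differences are not measured, so no fold is given.

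Rora encodes a nuclear receptor that activates Arntl and was read by 9 probe sets. The 6 sets with a control mean over 300 all fell, by log2 changes of −0.88 to −0.58. Among them, 1436326_at and 1436325_at come from the same sequence tag and so are not independent. Set 1424034_at read 1020.87, 1033.21 and 1083.42 with rosiglitazone, against 1865.11, 1910.72 and 1834.67 in control cells, a change of −0.84 (SE 0.04, adjusted p = 3.9e-11). Set 1455165_at read 586.7, 606.11 and 639.41 with rosiglitazone, against 1128.44, 1120.98 and 1126.54 in control cells, a change of −0.88 (SE 0.04, adjusted p = 1.3e-10). In all 6 sets the treated arrays lay wholly below the controls. With no filter on dim sets, limma's adjusted p was 0.000143 for 1424034_at and 0.00018 for 1455165_at.

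The 3 dim Rora sets, which reached at most 97.08, disagreed with each other. Set 1441085_at read 35.01, 23.9 and 27.4 with rosiglitazone and 65.2, 55.75 and 52.79 in control cells and fell by 1.02 on the log2 scale (SE 0.19, adjusted p = 0.00028). With a floor of 64 almost all of its values lay at the floor, and the change was −0.01. Set 1424035_at, from the same sequence tag as 1424034_at, read 34.65, 34.72 and 35.61 with rosiglitazone and 39.25, 31.15 and 39.03 in control cells. These groups overlapped, with a change of −0.05 (95% interval −0.45 to 0.34) where its bright partner fell.

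Set 1458145_at went the other way, at 97.08, 92.95 and 94.24 with rosiglitazone against 63.75, 85.29 and 73.44 in control cells. The treated arrays lay above the controls, and the log2 change was 0.36 (SE 0.12, adjusted p = 0.0204). The call was lost without control replicate 1, the lowest control array (0.26, limma adjusted p = 0.101), when the floor was 64 (adjusted p = 0.0592), without a filter on dim sets (adjusted p = 0.106) and when the filter removed 20% (adjusted p = 0.0686). Over the 17 alternatives in which it was tested, its adjusted p lay between 0.00296 and 0.106. Which part of the Rora transcripts each set reads is not given in the files used here.

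**Figure D2:**
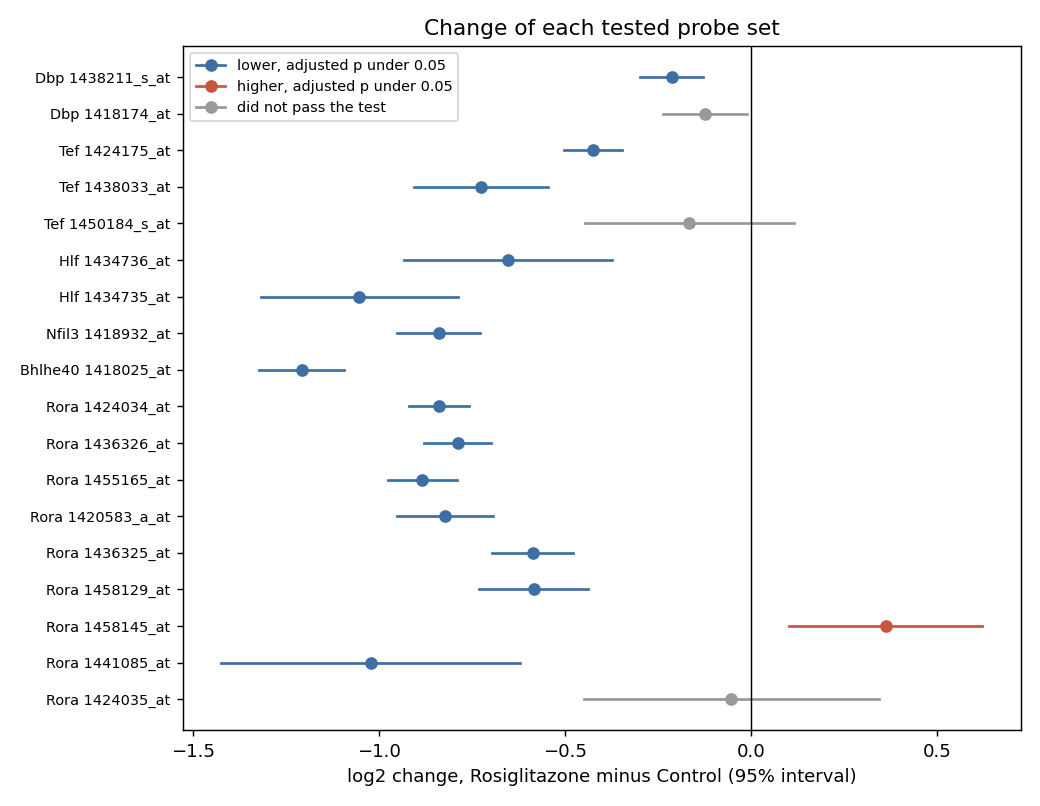
Log2 change of the 18 tested probe sets, rosiglitazone minus control, with limma's 95% intervals, coloured by the test. The sets of Bhlhe40 (−1.21), Nfil3 (−0.84) and the brighter Rora sets stand well below 0, the Dbp sets lie near 0, and Rora 1458145_at lies above it (0.36).

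**Figure D3:**
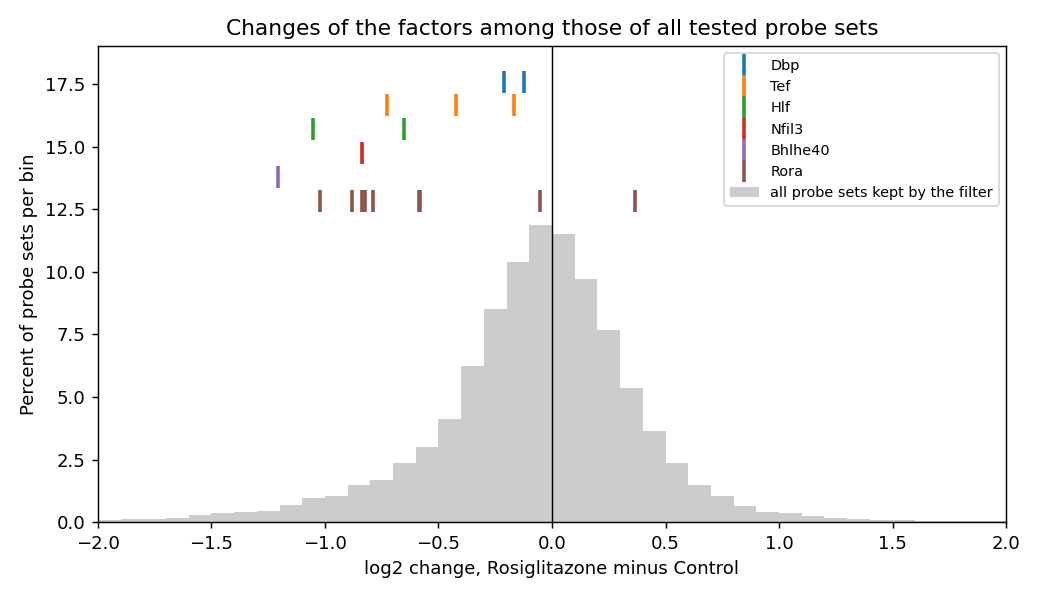
Grey bars give the percent of all 27022 tested probe sets in each bin of log2 change, and ticks mark the probe sets of the 6 tested factors. All Hlf, Nfil3 and Bhlhe40 ticks lie in the left shoulder of the distribution, while the Dbp ticks lie inside its body (0.348% of probe sets fall outside the plotted range).

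Among core clock genes, the loop that drives these factors, 7 of 14 measured genes fell and 3 rose, with a median log2 change of −0.18. For these lists a gene was read from its brightest tested probe set. Over 12952 genes read in this way, 35.3% were lower and 23.0% higher, with a median of −0.05, so the share that rose was near that of all genes. Per3, a period gene whose product acts in the repressive arm, fell by 0.80 (SE 0.06), to a mean intensity of 261.2 with rosiglitazone against 454.3 in control cells, and 3 of its 6 tested probe sets were lower. Cry2, which encodes a cryptochrome repressor, fell by 0.62 (SE 0.06) and the casein kinase gene Csnk1e fell by 0.55 (SE 0.05), lower on 2 of 3 probe sets. Nr1d1, which encodes the repressor REV-ERBα that opposes RORα, fell by 0.79 (SE 0.17), but its mean intensities were only 30.9 with rosiglitazone and 53.5 in control cells and the call was lost with a floor of 64.

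The direct partners of the factors within the loop moved in both directions. Arntl, which RORα activates, fell by 0.52 (SE 0.05) on the brighter of its 2 probe sets, while the other, at 0.14, did not pass the test. Clock rose by 0.30 (SE 0.04) on its brightest probe set. Of its 4 sets 2 were higher and the other 2 did not pass, the lowest with a change of −0.26. The other rises were Nr1d2, at 0.11, and Csnk1d, at 0.20, where 3 of the 5 Csnk1d probe sets tested were lower. Arntl, Clock, Nr1d2 and Csnk1d were named after their values were seen. The core clock counts were 6 lower and 4 higher after quantile normalization and after median centring.

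Of 12 measured clock-controlled output genes, a list that includes genes driven by PAR bZIP proteins, 9 fell and 1 rose, with a median log2 change of −0.53. After median centring the numbers were 8 and 2. Lonrf3 fell by 0.94 (SE 0.10), Ppard, which encodes the nuclear receptor PPARδ, fell by 0.91 (SE 0.08), and the tetraspanin gene Tspan4 fell by 0.88 (SE 0.05). The rise was Gys2, the liver-type glycogen synthase gene, at 2.73 (SE 0.06), with 1367 ± 13.6 with rosiglitazone and 206.6 ± 19.7 in control cells (mean ± SD, n = 3 each). Of the listed genes of vitamin B6 and heme metabolism known in liver as targets of PAR bZIP proteins, Alas1 had a change of −0.05 that did not pass the test. Pdxk had a change of 0.04 on its brightest probe set, which did not pass, but 1 of its 3 probe sets was higher, at 0.80. Cyp2b10, a cytochrome P450 gene on the same list, fell by 0.72 (SE 0.11) on its brightest probe set, and 2 of its 3 probe sets were lower. Alas1, Pdxk and Cyp2b10 were named after their values were seen.

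Glucocorticoids act on several clock genes and are commonly part of fat cell differentiation media. All 11 measured glucocorticoid-induced genes fell, against 35.3% of all genes on the deposited scale. Under the deposited scale, quantile normalization and median centring their medians were −0.57, −0.54 and −0.45, and all 11 fell each time. The list was chosen with earlier results of these data known. Errfi1, a feedback inhibitor of EGF receptor signalling, fell by 1.36 (SE 0.03), the transcription factor gene Cebpd fell by 1.16 (SE 0.04) and the kinase gene Sgk1 fell by 1.06 (SE 0.03). Tsc22d3, the glucocorticoid-induced leucine zipper gene, fell by 0.80 (SE 0.03), although 1 of its 4 probe sets was higher, at 0.52. This list shares Per1 with the core clock genes and Tsc22d3 with the output genes. The part of this group in the changes of the factors was not tested.

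Hypoxia is known to induce Bhlhe40, Bhlhe41 and Rora. Among 14 measured hypoxia genes 4 fell and 5 rose, with a median of 0.05, and after median centring 4 fell and 8 rose. Egln3, an oxygen-sensing hydroxylase gene, rose by 2.67 (SE 0.07). The peptide hormone gene Adm fell by 1.36 (SE 0.04), the glucose transporter gene Slc2a1 fell by 0.93 (SE 0.04) and Ndrg1 fell by 0.88 (SE 0.06). Genes of this list moved in both directions. The part of hypoxia signalling in the changes of the factors was not tested.

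**Figure D4:**
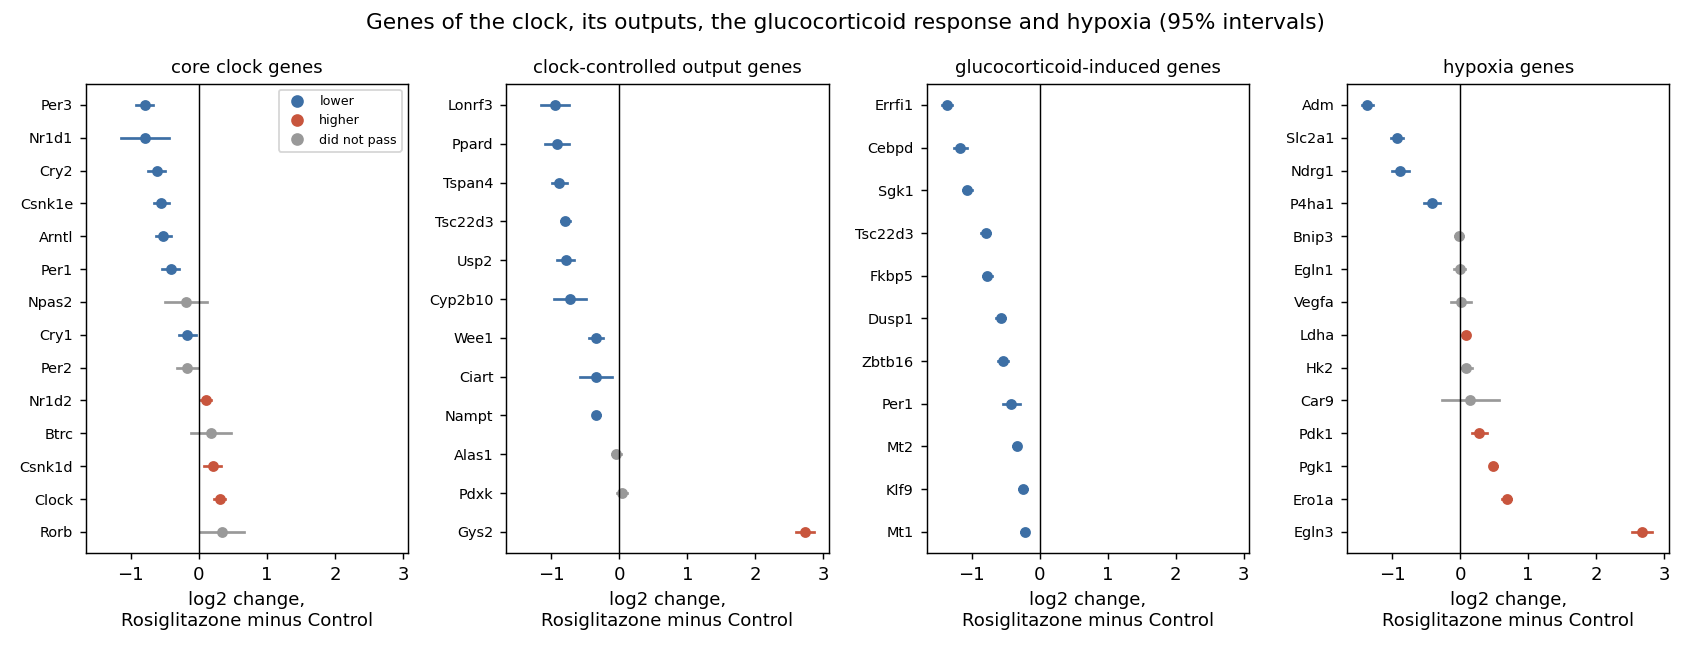
Log2 change of each measured gene of the 4 lists, rosiglitazone minus control, with 95% intervals, coloured as lower, higher or not passing the test. All 11 glucocorticoid-induced genes lie left of 0, most output genes do so apart from Gys2 (2.73), and hypoxia genes lie on both sides.

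Most markers of some other cell types were lower too, while the measured lymphocyte and epithelial markers did not pass the test. Of 12 measured macrophage markers 11 fell, with a median of −1.37, and their summed intensity was 4301 to 4682 with rosiglitazone against 12585 to 13721 in control cells. The remaining marker, Fcgr1, had a change of 0.29 that did not pass the test, and Itgam, left out by the filter, did not exceed 33.07 on any array. Of the fibroblast and preadipocyte markers 4 of 5 fell, with a summed intensity of 2693 to 2722 with rosiglitazone against 6280 to 6337 in control cells, and 5 of 6 smooth muscle and pericyte markers fell, with sums of 5979 to 6008 with rosiglitazone against 10556 to 11069 in control cells. Nfil3 and Bhlhe40 are known to be expressed in immune and stromal cells as well as in fat cells. The part of these cells in the falls of the factors was not tested.

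Of 6 measured fat cell markers 3 fell and 1 rose, and 3 fell and 3 rose after median centring. Lep, the gene of the hormone leptin, read 10.75, 21.28 and 25.31 with rosiglitazone, against 644.14, 637.45 and 712.17 in control cells, a log2 change of −5.02 (SE 0.14, adjusted p = 1.5e-13) with 1 treated array under the floor of 16. Pparg, the gene of the receptor that rosiglitazone binds, fell by 0.36 (SE 0.03) and the lipase gene Lipe fell by 0.23 (SE 0.04), while the lipid droplet gene Cidec rose by 0.28 (SE 0.03). The summed intensity of the list was 43982 to 45079 with rosiglitazone and 44592 to 45761 in control cells, and most of it came from Fabp4, with means of 17148 with rosiglitazone and 17647 in control cells, and Adipoq. Adipoq, a defining marker of the labelled cell type, averaged 13158 ± 238.4 with rosiglitazone and 12829 ± 146.8 in control cells (mean ± SD, n = 3 each). Of the endothelial markers 2 of 6 were bright enough to test, and both were lower, Tek with a log2 change of −1.15 and Flt1 of −1.57 on the brightest of its 4 probe sets, of which 2 were lower, while Pecam1 and Cdh5 did not exceed 20.44 and 27.85 on any array. The measured lymphocyte and epithelial markers, 2 each, did not pass the test. Of 3 measured Schwann cell and neuron markers 2 fell and S100b rose by 1.70.

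The genes whose pattern over the 6 arrays was most like that of a factor are given as a description, by Pearson's r over the 6 log2 values among 12226 genes. They were Camk1 and Gdpd1 for Dbp (r = 0.997 for both), Abat (r = 0.9998) and Cavin3 (r = 0.9997) for Tef, Eif4enif1 (r = 0.998) and Atp6ap1 (r = 0.996) for Hlf, and Slc39a6 and Lcp1 for Nfil3 (r = 0.999 for both). For Bhlhe40 they were Cyb561 (r = 0.9998) and Rnf150 (r = 0.9996), and for Rora Cd81 (r = 0.99995) and Zkscan4 (r = 0.9998). With 6 arrays in 2 groups any gene with a clear fall and a small spread scores high: 932 genes had an r above 0.99 with Rora, 833 with Bhlhe40 and 534 with Nfil3, against 20 with Dbp and 13 with Hlf.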

How the data were processed

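Total RNA of 6 samples was hybridised to 1 array each. The values used are the authors' deposited probe set intensity, a linear scale with 45101 probe sets. Which software made these values, and how it set background and scale, is not stated in the labels. Samples were grouped by title and treatment label, because the labels' treatment protocol names rosiglitazone for controls too. Symbols came from the platform's annotation, and probe sets with several symbols stayed unnamed. Left out were the 64 control probe sets and the 40% with the lowest mean (under 27.3). Intensities under 16 were set to 16 and log2 was taken. The test was limma 3.58.1 (R 4.3.3), two-sided, using lmFit, then eBayes with a trend, no covariates and Benjamini-Hochberg adjustment, checked on simulated data. With 3 arrays a side, no two-sided exact permutation test can reach a p under 0.1, and the number of arrays limits precision. All members were named, and of each other list up to 4 genes that passed with the largest absolute change. Alternatives changed the scaling, floor, filter, probe set choice, variance model, replicate block, threshold and arrays. Members and lists were chosen with earlier results of these data known.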

Additional observations from a re-analysis of the deposited data

How the results depend on the processing

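Of the 20 alternatives, each changing 1 choice, none turned the direction of a called probe set of the factors. For Bhlhe40, Nfil3, both Hlf sets and the Tef sets 1424175_at and 1438033_at every call held wherever the set was tested. Among all probe sets, 8709 were higher after median centring, against 5721 as deposited. With 1 probe set per gene 3057 were higher and 4635 lower, and with the mean of probe sets 2912 and 4279, fewer by construction. Among the factors, those same settings gave 6 and 6 lower and 0 higher, since the weaker Rora sets are then not read by themselves. The count of 1 higher became 0 with a floor of 64, with no filter, with the lowest 20% or 60% left out, at an adjusted p under 0.01 and without control replicate 1. At an unadjusted p under 0.05 limma gave 1 higher with a floor of 64, with no filter and with 20% left out, and 0 with 60% left out, without that array, with 1 probe set per gene and with the mean of probe sets. Leaving out each array in turn gave 14 to 15 lower and 0 to 1 higher. Clock-controlled output genes had 2 rises after quantile normalization, after median centring and with the mean of probe sets. Core clock genes had 1 rise with the mean of probe sets and 1 with eBayes without a trend, and hypoxia genes 8 after median centring; the cause was not tested. With the replicate number as a block, 14 factor probe sets were lower and 1 higher, and 5589 probe sets in all were higher and 8188 lower. Arrays with the same number deviated from their group means with correlations of −0.04, −0.02 and 0.02, and pairs with different numbers gave −0.06 to 0.07. With so few arrays these values cannot show whether samples with the same number shared a culture or a day. Signal near the floor limits what can be said of Bhlhe41, the 3 dim Rora sets and the size of the fall in Hlf set 1434735_at.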
